A study of Mus musculus with 15 samples.

Results

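Loss of Puma alone was compared with the wild type in lineage-negative bone marrow (BM) cells of secondary recipients, by the raw read counts of 7 of the 15 libraries of the series. They are the 4 libraries titled Puma (Puma-/-, replicates 1 to 4) and the 3 titled WT (replicates 1 to 3), and both groups carried intact mTerc, the telomerase RNA gene. For both, LSK cells (lineage-negative, Sca-1-positive, c-Kit-positive) of donors aged 8 to 12 weeks were grafted into lethally irradiated CD45.1+ recipients, and after 6 weeks 25000 LSK cells were grafted into secondary recipients. Femur marrow was taken 16 weeks later, and cells lacking lineage markers were isolated magnetically. The paper states a CD45.2 C57BL/6J background for its mice and names CD45.1 B6.SJL mice as recipients. No selection of CD45.2+ donor cells is stated for the RNA, so recipient cells may be among the cells isolated. The 4 G3 mTerc-/-Puma+/+ libraries and 3 of the 4 labelled G3 mTerc-/-Puma-/- entered the fit for a shared estimate of the spread, and their levels are given only beside genes of the comparison.

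PUMA, encoded by Bbc3, is a BH3-only protein of the BCL2 family. When p53 switches the gene on, the protein binds pro-survival relatives such as BCL2 and MCL1, so that BAX and BAK can open the outer mitochondrial membrane and caspases are activated. In the bone marrow it is known for the death of stem and progenitor cells after irradiation. The comparison of Puma-/- with WT asks how progenitors that lack PUMA but keep telomerase differ after serial transplantation.

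The 7 libraries held 102790519 to 120048871 counts, and replicates differed by far more than counting error. Of 40935 autosomal genes in the table, 18219 passed the filter on low counts and were tested. Levels are normalized counts per 1e+06 counts (CPM), which are not corrected for gene length, and a log2 fold change is Puma-/- minus WT. The libraries also differed in sex-linked RNA. Each of the Y-linked genes Ddx3y, Eif2s3y, Kdm5d and Uty lay at 5.76 CPM or more in every WT library and at 0.0624 CPM or less in every Puma-/- library, so this difference and the genotype cannot be told apart. Xist lay at 416.5, 211.3 and 1.72 CPM in WT and at 464 to 865 CPM in Puma-/-, so WT replicates 1 and 2 held both Xist and Y-linked RNA. The progenitor genes Kit (127 to 142 CPM in WT, 135 to 164 in Puma-/-) and Cd34 (207 to 217 and 151 to 229) were present throughout.

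Bbc3 itself (chromosome 7, 16308393 to 16318205, GRCm38) was lower in Puma-/- but not absent. Its level was 20.6, 9.67 and 23.5 CPM in the WT libraries and 5.15, 6.80, 5.02 and 5.05 CPM in the Puma-/- libraries. All Puma-/- libraries lay below all WT libraries, and WT replicate 2 stood nearest to them. The fitted log2 fold change of -1.70 had an SE of 0.27 (adjusted p = 0.0276). Adjusted p throughout are from the edgeR quasi-likelihood fit, by the Benjamini-Hochberg method over all genes tested, unless another tool is named. For Bbc3 the exact permutation test of the means gave p = 0.0286 (two-sided), the smallest that 4 against 3 libraries allow. The call was lost in 9 of 17 alternative fits, with adjusted p from 0.0971 to 0.20 in those. The fold change stayed negative in all of them, from -1.999 without WT replicate 2 to -1.46 without WT replicate 3. Bbc3 was not low in the 3 libraries labelled G3 mTerc-/-Puma-/- used here, at 13.5 to 17.0 CPM, beside 11.7 to 20.7 CPM in G3 mTerc-/-Puma+/+.

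Among the other BH3-only genes no member passed the test. Bid, whose protein links death receptors to mitochondria, lay at 109, 106 and 121 CPM in WT and at 94.3, 87.9, 104 and 93.8 CPM in Puma-/- (log2 fold change -0.24, SE 0.07, adjusted p = 0.369). Its groups did not overlap, but they nearly touched. Pmaip1, which encodes the p53-induced protein NOXA, varied most in WT, at 53.6, 16.6 and 83.5 CPM against 19.98 to 28.3 CPM in Puma-/- (log2 fold change -1.13, SE 0.50, adjusted p = 0.472). As for Bbc3, WT replicate 2 was the lowest WT library, and here it lay below all of Puma-/-. Bcl2l11, Bad, Bmf, Bik, Bnip3 and Bnip3l had log2 fold changes between -0.22 and 0.34 with overlapping groups, and Hrk had at most 2 counts in a library and was not tested.

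The effectors and pro-survival genes likewise gave no call. Mcl1, a short-lived protein that hematopoietic stem cells need to survive, lay at 409, 248 and 414 CPM in WT and at 239 to 260 CPM in Puma-/- (log2 fold change -0.50, SE 0.17, adjusted p = 0.398). WT replicates 1 and 3 were high and WT replicate 2 fell inside the Puma-/- range. Bax and Bak1, the pore formers, had log2 fold changes of -0.08 (SE 0.13) and -0.11 (SE 0.11). Bcl2, Bcl2l1 and Bcl2l2 differed by 0.06 to 0.08, Bok by 0.31, and the Bcl2a1 copies Bcl2a1a, Bcl2a1b and Bcl2a1d, which share near-identical sequence and whose reads may be split between them, by 0.48 to 0.87, all with overlapping groups. Bcl2l10 was too low to test. Caspases, the apoptosome and their inhibitors (20 genes) had a median of -0.03, and 0 of 20 reached an unadjusted p under 0.05.

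Across the autosomes, 9 of 18219 genes (0.0494%) had an adjusted p under 0.05, of which 5 rose (0.0274%) and 4 fell (0.022%) in Puma-/-. DESeq2 called 124 (0.681%), of which 88 were higher (0.483%) and 36 lower (0.198%). At an unadjusted p under 0.05 there were 1839 genes (10.1%), 1051 higher (5.77%) and 788 lower (4.33%). Scaling by library size alone gave 1300 and 440, and 6 and 2 calls. When 1 library was left out, the share higher ran from 2.53% (without WT replicate 3) to 8.01% (without WT replicate 2). The share lower ran from 1.95% (without WT replicate 3) to 7.56% (without Puma-/- replicate 3). Counts for lists in those fits are to be read beside these shares. In 1003 genes all Puma-/- libraries lay above WT (5.51%) and in 755 below (4.14%), so that in 1758 (9.65%) the 4 Puma-/- and 3 WT libraries did not overlap. The median log2 fold change over all of them was 0.0056. With 6 genes on the sex chromosomes, which are left out here, 15 genes passed (0.079% of all tested).

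The clearest difference was at Gm15446, a protein-coding gene on chromosome 5 (109923400 to 109943936). It lay at 0.364, 0.343 and 0.441 CPM in WT and at 6.57, 8.42, 8.13 and 7.604 CPM in Puma-/-. Every Puma-/- library was far above every WT library (log2 fold change 4.32, SE 0.16, adjusted p = 6.24e-09). It lay at 8.75 to 9.56 CPM in G3 mTerc-/-Puma+/+ and at 7.62 to 9.54 CPM in the libraries labelled G3 mTerc-/-Puma-/-, so WT was the group that stood apart. The lincRNA 1010001B22Rik begins 51575 bases beyond it (chromosome 5, 109995511 to 109996398) and had the same pattern. It had 0, 1 and 0 counts in WT and 24, 27, 32 and 34 counts in Puma-/-, a ratio of 86.7 per count sequenced (95% exact interval for counting error 15.3 to 3453, adjusted p = 0.0011). Both telomerase-deficient groups lay between 0.137 and 0.316 CPM, beside 0.201 to 0.308 CPM in Puma-/-.

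Wdfy1, an endosomal FYVE- and WD40-domain protein, fell in Puma-/- and also set WT apart from the rest. Its level was 52.5, 33.6 and 50.1 CPM in WT and 20.03, 20.03, 18.7 and 24.3 CPM in Puma-/- (chromosome 1, 79702262 to 79776143; log2 fold change -1.13, SE 0.14, adjusted p = 0.0022). The telomerase-deficient libraries lay at 18.8 to 23.1 CPM, as low as Puma-/-. Of its exonic bases, 126 overlap a gene on the opposite strand, and the strand setting of the counting is not given in the sources used here.

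At Gm6257 and 9430002A10Rik, Puma-/- was the group that stood apart. Gm6257, a processed pseudogene on chromosome 9 (63443166 to 63444075), had 2, 2 and 3 counts in WT and 80, 54, 66 and 87 in Puma-/-, a ratio of 30.4 (95% exact interval for counting error 14.6 to 76.2, adjusted p = 1.2e-04). Reads of a processed pseudogene may be shared with its parent gene, so its value is uncertain. The lincRNA 9430002A10Rik (chromosome 8, 88174560 to 88175034) lay at 0.443, 0.362 and 0.406 CPM in WT and at 1.51, 1.72, 2.68 and 1.61 CPM in Puma-/- (log2 fold change 2.22, SE 0.28, adjusted p = 0.003). In the telomerase-deficient libraries Gm6257 was at 0.0294 CPM or less and 9430002A10Rik at 0.659 CPM or less, at or near the WT level.

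Ankrd63, an ankyrin-repeat gene on chromosome 2 (118699103 to 118703963), rose from 1.26, 1.46 and 1.42 CPM in WT to 3.76, 2.72, 5.90 and 4.81 CPM in Puma-/- (log2 fold change 1.64, SE 0.26, adjusted p = 0.0289). It passed in 6 of 17 alternative fits, the fewest of the 9 calls, and its exact permutation test gave p = 0.0571 (two-sided). The neighbours Ivd and Gchfr, which begin 157991 and 463810 bases from its end, missed the threshold with an adjusted p = 0.05004 each in edgeR's test. Ivd, the isovaleryl-CoA dehydrogenase of leucine breakdown, lay at 80.2, 94.3 and 98.0 CPM in WT and at 64.1 to 69.0 CPM in Puma-/- (log2 fold change -0.44, SE 0.07). Gchfr, which encodes the feedback regulator of GTP cyclohydrolase I, lay at 0.344, 0.473 and 0.512 CPM in WT and at 1.39 to 2.16 CPM in Puma-/- (log2 fold change 1.99, SE 0.34). Ankrd63 and Gchfr were thus higher and Ivd lower in every Puma-/- library than in any WT library. Among the 44 other genes tested within 1 Mb of Ankrd63, which include Ivd and Gchfr, 10 (22.7%) had an unadjusted p under 0.05, beside 10.1% of all autosomal genes. Within 1 Mb of the other called genes, Bbc3 aside, that share ran from 0% (9430002A10Rik) to 17.6% (Cep85).

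Nnt, the mitochondrial transhydrogenase that makes NADPH and that is known to be truncated in the C57BL/6J substrain, fell in Puma-/- without being lost in any library. It lay at 71.1, 97.4 and 71.7 CPM in WT and at 51.4, 45.4, 49.4 and 48.7 CPM in Puma-/- (chromosome 13, 119335448 to 119408997; log2 fold change -0.72, SE 0.11, adjusted p = 0.0162). It lay nearer to Puma-/- than to WT in 2 of 4 G3 mTerc-/-Puma+/+ libraries and in 3 of 3 labelled G3 mTerc-/-Puma-/-. Of its 7037 exonic bases, 3339 overlap another gene on the same strand. Emb, an adhesion protein of early progenitors whose gene ends 2.06 Mb before Nnt, was at 460, 377 and 513 CPM in WT and at 273 to 338 CPM in Puma-/- (log2 fold change -0.55, SE 0.11, adjusted p = 0.215).

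Cep85, a centrosomal protein, fell from 170, 173 and 200.5 CPM in WT to 73.7, 89.6, 68.7 and 97.0 CPM in Puma-/- (chromosome 4, 134129858 to 134187112; log2 fold change -1.14, SE 0.17, adjusted p = 0.0225). All 4 Puma-/- libraries lay well under the WT range. The call was lost in 9 of 17 alternative fits, all with a negative fold change. It lay at 84.1 to 105 CPM in G3 mTerc-/-Puma+/+ and spread from 87.5 to 159 CPM in the libraries labelled G3 mTerc-/-Puma-/-.

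**Figure D1:**
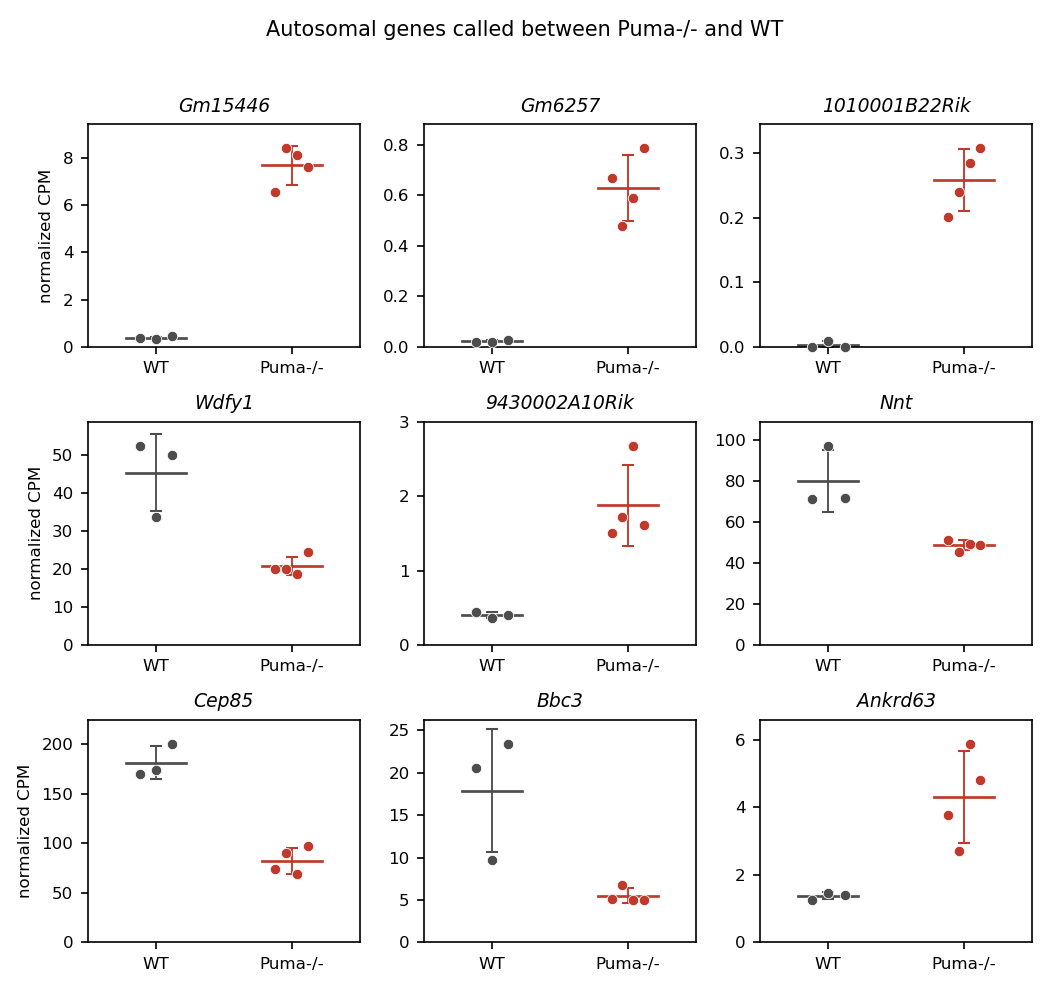
Normalized CPM (vertical axis, from 0, a scale for each gene) of the 9 called autosomal genes in the 3 WT libraries (grey) and the 4 Puma-/- libraries (red), with a point per library, a line at the group mean and bars of 1 SD. No gene's groups overlap, and WT replicate 2 of Bbc3, at 9.67 CPM, lies above the highest Puma-/- library, at 6.80 CPM.

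After Ivd and Gchfr, the next genes by p, taken among protein-coding genes without overlap between the groups, were the platelet genes Vwf and Gp1ba, described with their list. Mrvi1, which restrains calcium release in platelets and smooth muscle, lay at 4.01 to 7.68 CPM in WT and at 11.5 to 13.98 CPM in Puma-/- (log2 fold change 0.98, SE 0.20, adjusted p = 0.201). Kalrn, a guanine nucleotide exchange factor, lay at 4.30 to 6.94 and 9.20 to 10.5 CPM (0.78, SE 0.17, adjusted p = 0.263), and Cavin2, a caveolar coat protein, at 2.89 to 5.85 and 9.45 to 13.7 CPM (1.17, SE 0.26, adjusted p = 0.266). WT replicate 3 was the lowest library for each of these 3. Il17re, Fcmr, Gm973 and Sned1 were higher in Puma-/- by 1.10 to 1.42, and Cdk5rap1, Slfn9, Haus6 and Efcab7 lower by log2 fold changes of -1.11 to -0.30, with adjusted p of 0.20 to 0.285 and thus no call. Cdk5rap1, which modifies mitochondrial tRNAs, was at 28.8, 14.2 and 27.4 CPM in WT and at 9.62 to 12.6 CPM in Puma-/-, again with WT replicate 2 nearest to Puma-/-. It lay nearer to Puma-/- than to WT in 4 of 4 G3 mTerc-/-Puma+/+ libraries and in 2 of 3 labelled G3 mTerc-/-Puma-/-. These counts were 3 of 4 and 3 of 3 for Efcab7, 0 of 4 and 3 of 3 for Slfn9, and 0 of 4 and 2 of 3 for Haus6.

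Megakaryocytes are the platelet-forming cells of the marrow, and part of the stem cell pool already carries their transcripts. Their genes formed the list with the highest median. Of 21 genes tested, 20 had a positive fold change, 16 lay higher in all 4 Puma-/- libraries than in any WT library (5.51% of all autosomal genes did), and 17 reached an unadjusted p under 0.05, all higher (5.77% of all autosomal genes). The median log2 fold change was 0.99, beside 0.0056 for all autosomal genes. None passed the adjusted test of edgeR, in which Vwf came nearest (adjusted p = 0.107). With DESeq2 8 of the 21 passed, all higher, beside 0.483% of autosomal genes. In such bulk libraries more cells of a type and more RNA per cell cannot be told apart.

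Vwf, the carrier of platelets to injured vessel walls and a mark of platelet-biased stem cells, lay at 19.99, 20.6 and 9.85 CPM in WT and at 32.4, 44.5, 46.9 and 39.6 CPM in Puma-/- (log2 fold change 1.28, SE 0.24, adjusted p = 0.107). The lowest Puma-/- library was above the highest WT library by a wide margin. Gp1ba encodes the platelet receptor for that protein and lay at 7.57, 7.01 and 3.65 CPM in WT and at 11.6, 13.7, 16.4 and 11.6 CPM in Puma-/- (log2 fold change 1.13, SE 0.22, adjusted p = 0.168). Its partners Gp1bb and Gp9 had log2 fold changes of 1.23 (SE 0.33) and 0.98 (SE 0.25). The platelet chemokine Pf4 lay at 37.9, 44.8 and 19.02 CPM in WT and at 63.2, 72.9, 116 and 67.8 CPM in Puma-/- (log2 fold change 1.24, SE 0.30, adjusted p = 0.306), and F2rl2, a thrombin receptor, at 6.40, 7.10 and 2.83 CPM and at 10.6, 10.9, 15.3 and 10.4 CPM (1.11, SE 0.27, adjusted p = 0.311). In all of these WT replicate 3 was the lowest library and Puma-/- replicate 3 the highest.

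Among other members, the integrin Itga2b, also present on early progenitors, lay at 90.9 to 195 CPM in WT and 196 to 304 CPM in Puma-/- (log2 fold change 0.76, SE 0.23), so its groups almost met, and its partner Itgb3 at 38.2 to 55.0 and 73.0 to 93.7 CPM (0.70, SE 0.21). The groups overlapped for 5 members: Clec1b at 1.04, Tubb1 at 0.66, Serpine2 at 0.32, Nbeal2 at 0.25 and Selp, the platelet P-selectin gene, at -0.28 (SE 0.25). The summed level of the list was 631, 662 and 427 CPM in WT and 820, 931, 1077 and 840 CPM in Puma-/-. It was 485 to 566 CPM in G3 mTerc-/-Puma+/+ and 489 to 523 CPM in the libraries labelled G3 mTerc-/-Puma-/-, within the WT range. Without WT replicate 3 the median was 0.74 and 12 of 21 genes had an unadjusted p under 0.05, beside 2.53% higher among all autosomal genes in that fit. Without Puma-/- replicate 3 these were 0.78 and 15, beside 6.07% higher among all autosomal genes.

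The 250 bases before the start of the 4 megakaryocyte genes with the lowest p that the promoter table holds are shown because 17 of its 21 genes had an unadjusted p under 0.05 in 1 direction. They are from RefSeq on GRCm38.p6, 5′ to 3′ on the gene's strand, which is the plus strand for all 4. Capitals mark GATAA or its complement TTATC, the core that GATA factors bind, and GGAAG or its complement CTTCC, a core of ETS factors, the factor families of this lineage. Gp1ba is at chr11:70638872-70639121, Pf4 at chr5:90772185-90772434, F2rl2 at chr13:95696670-95696919 and Gp9 at chr6:87777820-87778069.
Gp1ba: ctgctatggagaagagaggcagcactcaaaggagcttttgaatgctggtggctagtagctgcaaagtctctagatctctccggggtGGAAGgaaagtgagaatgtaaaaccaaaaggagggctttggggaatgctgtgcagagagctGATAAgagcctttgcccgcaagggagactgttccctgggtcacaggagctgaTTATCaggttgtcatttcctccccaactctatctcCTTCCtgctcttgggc
Pf4: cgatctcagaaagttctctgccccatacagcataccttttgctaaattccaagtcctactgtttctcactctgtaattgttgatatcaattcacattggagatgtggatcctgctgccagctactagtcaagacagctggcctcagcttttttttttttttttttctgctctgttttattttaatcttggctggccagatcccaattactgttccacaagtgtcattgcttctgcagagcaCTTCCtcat
F2rl2: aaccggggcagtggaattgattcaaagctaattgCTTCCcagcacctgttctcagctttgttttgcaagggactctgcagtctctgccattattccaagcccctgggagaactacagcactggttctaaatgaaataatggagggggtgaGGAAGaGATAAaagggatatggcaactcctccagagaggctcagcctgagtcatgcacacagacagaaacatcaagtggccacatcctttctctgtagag
Gp9: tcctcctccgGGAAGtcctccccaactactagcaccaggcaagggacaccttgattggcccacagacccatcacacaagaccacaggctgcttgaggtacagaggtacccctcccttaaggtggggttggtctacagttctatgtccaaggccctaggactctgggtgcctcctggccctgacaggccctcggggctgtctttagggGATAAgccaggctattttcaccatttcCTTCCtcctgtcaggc
The promoters of Gp1ba, F2rl2 and Gp9 hold both motifs, with 2, 1 and 1 matches to GATAA, and that of Pf4 holds GGAAG alone. No match printed shares a base with another. Of the 21 genes, 16 are in the table. In these 16 windows, 8 hold GATAA, 14 hold GGAAG and 6 hold both. Among the promoters of 10944 autosomal protein-coding genes tested, 1641 (14.99%) hold GATAA, 68.2% GGAAG and 9.92% both. A match is only a description of these letters.

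**Figure D2:**
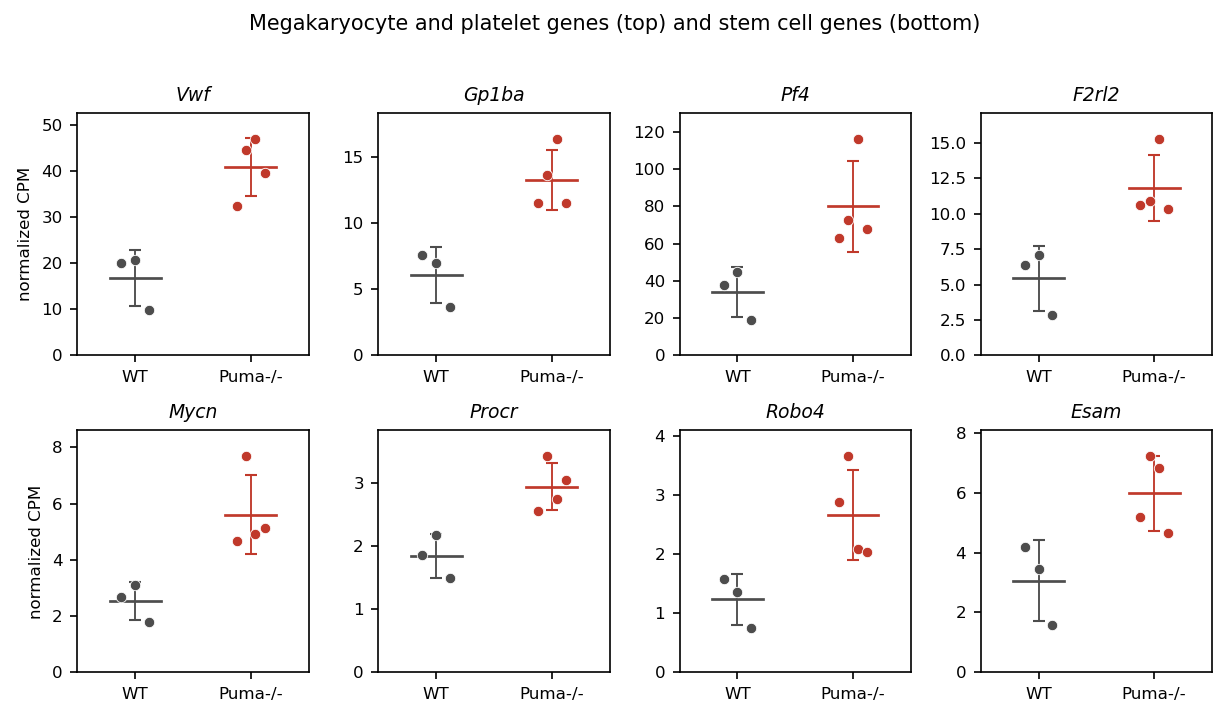
Normalized CPM (vertical axis, from 0) of the 4 megakaryocyte and platelet genes (top row) and the 4 stem cell genes (bottom row) with the lowest p, with a point per library, a line at the mean and bars of 1 SD for WT (grey, 3 libraries) and Puma-/- (red, 4 libraries). The groups do not overlap for any of the 8 genes, and none of them passed the adjusted test.

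Stem cell genes were next, with a median of 0.51 over 20 genes. In 7 the Puma-/- libraries all lay above WT (5.51% of all autosomal genes did), 8 had an unadjusted p under 0.05, all higher (5.77% of all), and none passed the adjusted test, while DESeq2 passed Mycn and Procr. Mycn, a growth regulator of stem cells, lay at 2.69, 3.11 and 1.80 CPM in WT and at 4.67, 7.68, 4.91 and 5.14 CPM in Puma-/- (log2 fold change 1.14, SE 0.26, adjusted p = 0.285). Procr, the protein C receptor that marks long-term stem cells, lay at 1.86, 2.19 and 1.499 CPM and at 2.57, 3.43, 2.75 and 3.05 CPM (0.67, SE 0.19, adjusted p = 0.352). The vascular and stem cell genes Robo4 and Esam differed by 1.11 (SE 0.37) and 0.96 (SE 0.32), again without overlap. Progenitor genes of broader expression differed less, with Kit at 0.20 (SE 0.10), Cd34 at -0.13 (SE 0.13) and Cd48 at -0.10 (SE 0.11). WT replicate 3 was the lowest library for Mycn, Procr, Robo4 and Esam, and without it 4 genes reached an unadjusted p under 0.05, with a median of 0.35. Puma-/- replicate 2 was the highest for the same 4, and without it that count was also 4. It was 5 without Puma-/- replicate 4. In the fits without WT replicate 3, Puma-/- replicate 2 and Puma-/- replicate 4, 2.53%, 4.37% and 4.72% of all autosomal genes were higher.

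Lymphoid and antigen-presentation genes lay mostly on the higher side. All 10 MHC class II genes had a positive fold change, with a median of 0.45, and 6 lay above WT without overlap (5.51% of all autosomal genes did), yet 3 reached an unadjusted p under 0.05 (5.77% of all) and none the adjusted one. Cd74, the invariant chain, lay at 572, 718 and 557 CPM in WT and at 757 to 929 CPM in Puma-/- (log2 fold change 0.43, SE 0.23), and H2-Ob, which tunes peptide loading, at 14.98 to 21.3 and 23.2 to 30.1 CPM (0.61, SE 0.23). Ciita, their common activator, was at 0.56 (SE 0.19, adjusted p = 0.412), with Puma-/- replicate 3 inside the WT range. With Xist as a covariate the median of the list was 0.29, and 1 gene reached an unadjusted p under 0.05. That count was 8 in the 7 libraries alone, 0 with all 15 libraries, 5 without WT replicate 2, 1 without WT replicate 1, 0 without WT replicate 3 and 2 without Puma-/- replicate 2, 3 or 4. In these fits the share higher among all autosomal genes lay between 2.53% and 8.01%.

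Mature B and plasma cell genes lay to both sides, with 8 of 13 positive and 5 negative, the lowest at -0.34. Of the 13, 4 had an unadjusted p under 0.05, all higher (5.77% of all autosomal genes). Fcmr, the receptor for IgM, lay at 1.66, 2.10 and 1.28 CPM in WT and at 3.78, 2.99, 4.17 and 4.70 CPM in Puma-/- (log2 fold change 1.22, SE 0.27, adjusted p = 0.265), and Ms4a1, which encodes CD20, at 0.856 to 1.74 and 2.12 to 2.83 CPM (1.054, SE 0.28). In the early B list Dntt, the polymerase that adds bases during recombination, lay at 18.9, 46.2 and 25.9 CPM in WT and at 52.3 to 84.3 CPM in Puma-/- (1.02, SE 0.41, adjusted p = 0.442). The medians of these lists were 0.27 and 0.33, with 3 of 23 early B genes higher at an unadjusted p under 0.05 (5.77% of all autosomal genes). Without WT replicate 3 the medians were 0.09 and 0.19 and the counts 2 and 0. Without WT replicate 2 the mature B median was 0.47, without Puma-/- replicate 1 the early B median was 0.19, and without any 1 of WT replicates 1 and 2 and Puma-/- replicates 1, 2 and 4 the early B count was 1. In these fits the share higher among all autosomal genes lay between 2.53% and 8.01%. The T and NK list had a median of 0.28 over 24 genes. Of these, 2 were higher at an unadjusted p under 0.05 (5.77% of all autosomal genes), among them Gata3 at 0.84 (SE 0.30). That median rested on single libraries. It was -0.05 without Puma-/- replicate 2 (10 positive and 14 negative), 0.07 with a count of 0 without WT replicate 3, and 0.06 with Xist as a covariate. The summed level of the mature B and plasma cell list, in which immunoglobulin genes weigh most, was 16968 CPM in WT replicate 2, above 7471 to 11614 CPM in the other 6 libraries. The group mean of that sum was 11698 CPM in WT and 10597 CPM in Puma-/-.

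Cell cycle genes lay on the lower side, each by little. All 29 mitosis genes had a negative fold change, between -0.35 and -0.09, with a median of -0.21. In 12 of them all Puma-/- libraries lay below WT (4.14% of all autosomal genes did), 14 reached an unadjusted p under 0.05 (4.33% of all), and none passed the adjusted test of edgeR, while DESeq2 called Ttk. Ttk, the spindle checkpoint kinase MPS1, lay at 49.0, 40.4 and 46.1 CPM in WT and at 36.3, 35.4, 38.7 and 35.9 CPM in Puma-/- (log2 fold change -0.30, SE 0.07, adjusted p = 0.31). The spindle motor Kif11 was at -0.32 (SE 0.09), the checkpoint kinase Bub1 at -0.35 (SE 0.10) and the centromeric histone Cenpa at -0.25 (SE 0.07). With library size alone in place of TMM scaling the median was -0.14 and 9 reached an unadjusted p under 0.05. Without WT replicate 3 it was -0.15 and 5 did. In these fits 2.42% and 1.95% of all autosomal genes were lower.

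All 35 DNA replication genes were also negative, with a median of -0.12, and 8 reached an unadjusted p under 0.05 (4.33% of all autosomal genes were lower). Ccne1, the cyclin that starts S phase, lay at 34.0, 33.4 and 41.3 CPM in WT and at 26.4, 27.1, 28.8 and 28.0 CPM in Puma-/- (log2 fold change -0.39, SE 0.10, adjusted p = 0.311). E2f1, Ccne2 and Cdc45 were at -0.26, -0.25 and -0.21. The median was -0.06 with library size alone, and without WT replicate 3 it was -0.07, with 2 genes at an unadjusted p under 0.05. Without Puma-/- replicate 3 there were 19, with a median of -0.19, and without replicate 2 there were 5. In the fits without WT replicate 3, Puma-/- replicate 3 and Puma-/- replicate 2, 1.95%, 7.56% and 2.98% of all autosomal genes were lower. DESeq2 called Ccne1.

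Of 11 monocyte genes, 10 had a negative fold change, with a median of -0.38, and 5 had an unadjusted p under 0.05, all lower (4.33% of all autosomal genes). Ly6c2, the Ly6C antigen of monocytes, lay at 1286, 1194 and 1597 CPM in WT and at 946, 707, 1095 and 1118 CPM in Puma-/- (log2 fold change -0.49, SE 0.14, adjusted p = 0.357), and was the only member without overlap. The coagulation factor gene F13a1 was at -0.51 (SE 0.16) and the endotoxin co-receptor Cd14 at -1.29 (SE 0.47), while Csf1r, Irf8 and Cx3cr1, which define the lineage, had unadjusted p of 0.138 or more. The summed level was 6491, 4756 and 7592 CPM in WT and 3543 to 5136 CPM in Puma-/-. WT replicate 2 thus lay among the Puma-/- libraries. Without it 8 genes had an unadjusted p under 0.05, and without WT replicate 3 there were 2, with a median of -0.24. In those fits 6.39% and 1.95% of all autosomal genes were lower.

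WT replicate 2 stood apart from the other WT libraries at the immediate early genes, which encode transcription factors and feedback regulators switched on within minutes of a stimulus. All 23 had a negative fold change and the list had the lowest median, -0.72, and 11 had an unadjusted p under 0.05 (4.33% of all autosomal genes were lower), but in none were the groups apart. Fos lay at 1584, 629 and 1874 CPM in WT and at 732, 930.4, 739 and 636 CPM in Puma-/- (log2 fold change -0.84, SE 0.39, adjusted p = 0.488). Klf6 lay at 389, 104 and 469 CPM in WT and at 104 to 149 CPM in Puma-/- (-1.44, SE 0.54), and Atf3, a stress-induced factor, at 97.1, 6.55 and 145 CPM and at 10.7 to 13.7 CPM (-2.77, SE 1.02, adjusted p = 0.423). WT replicates 1 and 3 were high and WT replicate 2 was at or below the Puma-/- level. The summed level of the list was 7852, 3195 and 8408 CPM in WT and 3351 to 4641 CPM in Puma-/-. The count at an unadjusted p under 0.05 was 18 without WT replicate 2, 2 without WT replicate 1 and 0 without WT replicate 3. In those fits 6.39%, 2.59% and 1.95% of all autosomal genes were lower. The count of the list was 4 without Puma-/- replicate 1 or 4 and 7 without replicate 3, beside 3.91%, 3.18% and 7.56% of all.

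NF-kB and inflammatory genes shared that pattern of libraries. Of 23 genes, 6 were lower and 1 was higher at an unadjusted p under 0.05 (4.33% and 5.77% of all autosomal genes), and the median was -0.39. Nfkbia, the inhibitor of NF-kB that NF-kB itself induces, lay at 207, 127 and 206 CPM in WT and at 87.1 to 113 CPM in Puma-/- (log2 fold change -0.82, SE 0.27, adjusted p = 0.391) and was the only member without overlap. The chemokine genes Ccl2 and Cxcl2 were at -1.73 (SE 0.59) and -1.87 (SE 0.69), each with WT replicate 2 near Puma-/-, whereas the subunits Nfkb1 and Nfkb2 differed by -0.01 and 0.04. Without WT replicates 1, 2 and 3 in turn, the lower genes at an unadjusted p under 0.05 were 2, 11 and 2, with medians of -0.20, -0.59 and -0.33. In those fits 2.59%, 6.39% and 1.95% of all autosomal genes were lower.

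**Figure D3:**
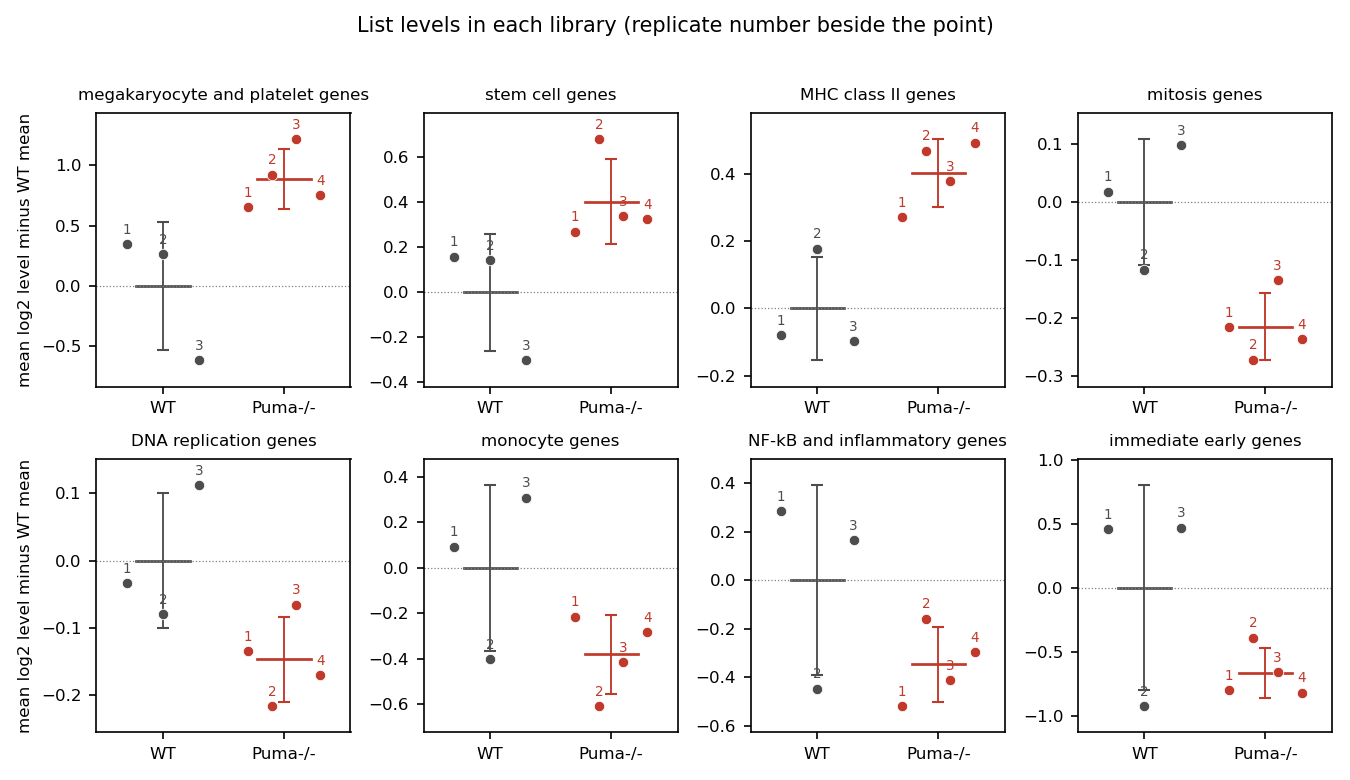
Level of 8 gene lists in each library (vertical axis, mean over the genes of log2 of normalized CPM plus 0.5, minus the WT mean, a scale for each list) for WT (grey) and Puma-/- (red), with the replicate number beside each point, a line at the mean and bars of 1 SD. The Puma-/- libraries lie above WT for the megakaryocyte, stem cell and MHC class II lists, and WT replicate 2 lies apart from WT replicates 1 and 3 for the immediate early list.

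Targets of p53 lay to both sides. Of 34, 18 had a positive and 16 a negative fold change, the median was 0.01, and Bbc3 was the only call. Besides Bbc3, 5 were lower and 1 was higher at an unadjusted p under 0.05, beside 4.33% and 5.77% of all autosomal genes. With Bbc3, the lower genes were 6, and they were 2, 10 and 1 without WT replicates 1, 2 and 3 in turn. In those fits 2.59%, 6.39% and 1.95% of all autosomal genes were lower. Cdkn1a, the cell cycle inhibitor p21, lay at 41.8, 22.02 and 56.3 CPM in WT and at 23.5 to 26.8 CPM in Puma-/- (log2 fold change -0.70, SE 0.26, adjusted p = 0.426), so that WT replicate 2 was below every Puma-/- library. Plk2 and Plk3, stress-responsive kinases, were at -1.26 (SE 0.49 and 0.53) with the same order of WT libraries, and Phlda3, an inhibitor of AKT, was at 0.71 (SE 0.31). Mdm2, which limits p53, was at -0.11 (SE 0.07). Of 19 genes of the ER stress and integrated stress response, 16 had a negative and 3 a positive fold change, with a median of -0.11. The groups overlapped for every member. The summed level was 4639, 4726 and 4284 CPM in WT and 3792 to 4268 CPM in Puma-/-, so these sums nearly touched. At an unadjusted p under 0.05, 3 genes of the list were lower (4.33% of all autosomal genes), namely Atf3, Atf4 and Dnajb9. There were 1 without WT replicate 1 or 3 and 5 without WT replicate 2, beside 2.59%, 1.95% and 6.39% of all autosomal genes in those fits.

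Interferon and innate cell lists had positive medians with few or no genes past an unadjusted p of 0.05, and single libraries weighed on them. For type I interferon-stimulated genes the median was 0.28 and 3 of 31 were higher (5.77% of all autosomal genes). These were 0.11 and 1 without Puma-/- replicate 2. The count was 7 without Puma-/- replicate 3, 5 without replicate 4 and 1 without WT replicate 3. In these fits between 2.53% and 6.07% of all autosomal genes were higher. For the interferon-gamma-induced GTPases the median and count were 0.46 and 0 of 17, with a median of 0.15 without Puma-/- replicate 2 and 0.70 without WT replicate 2. Late neutrophil genes were at 0.35 with 0 of 15, but at -0.14 without Puma-/- replicate 1, at 0.07 without WT replicate 2 and at -0.02 with limma-voom, so their direction is not settled. Resident macrophage genes were at 0.43 with 0 of 13, between 0.34 and 0.50 over the leave-one-out fits, and dendritic cell genes at 0.24 with 0 of 14, or 0.05 with Xist as a covariate.

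Mast cell, basophil and eosinophil genes had a median of 0.44, with 3 of 17 higher at an unadjusted p under 0.05 (5.77% of all autosomal genes). Among them Il5ra, the eosinophil growth factor receptor, lay at 0.291 to 0.343 CPM in WT and at 0.651 to 0.897 CPM in Puma-/- (log2 fold change 1.19, SE 0.24, adjusted p = 0.185). Its groups did not overlap. The count was 7 without WT replicate 2 and 1 without WT replicate 3 or Puma-/- replicate 4. In those fits 8.01%, 2.53% and 4.72% of all autosomal genes were higher. The median of the list lay between 0.30 and 0.70 over the leave-one-out fits.

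Lists of mature erythroid and housekeeping function had medians between -0.12 and 0.09. Cytosolic ribosomal protein genes (73), erythroid genes (25), heme and globin genes (15) and telomerase and telomere genes (16) had medians of -0.02, -0.06, -0.06 and -0.02, with 0, 1, 0 and 0 members at an unadjusted p under 0.05. Primary granule genes of myeloid progenitors were at 0.09 with 0 of 11, MHC class I genes at 0.09 with 0 of 16 and nuclear respiratory chain genes at -0.12 with 0 of 47, though 16 of the last were lower without Puma-/- replicate 3 (7.56% of all autosomal genes in that fit). Of the respiratory chain genes 43 had a negative and 4 a positive fold change. Their median was near that of the DNA replication genes (-0.12). Of the ribosomal protein genes 55 were negative and 18 positive. Over the leave-one-out fits the medians of ribosomal protein, primary granule and MHC class I genes took both signs. DNA repair genes were at -0.06 with 1 of 22 lower, growth factor receptors at 0.01 with 2 of 15 higher, or 0 without WT replicate 3, and p53 and its regulators at -0.05 with 1 of 16 lower. Among all autosomal genes 4.33% were lower and 5.77% higher, and 2.53% were higher without WT replicate 3. Erythropoietin and STAT5 targets were at 0.03 with 4 of 14 lower (4.33% of all autosomal genes), namely Id1, Osm, Pim1 and Pim3. That count was 0 without WT replicate 3 or with Xist as a covariate, 1 without WT replicate 1 or Puma-/- replicate 4 and 2 without Puma-/- replicate 1, and without WT replicate 3 the median was -0.13.

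Stromal and endothelial genes, markers of non-hematopoietic marrow cells, lay to both sides, with 10 positive and 6 negative and a median of 0.43. In 4 all Puma-/- libraries lay above WT and in 2 below (5.51% and 4.14% of all autosomal genes). At an unadjusted p under 0.05, 2 were higher and 2 lower (5.77% and 4.33% of all autosomal genes). Without WT replicate 2 these were 4 and 0, without WT replicate 3 or Puma-/- replicate 1 they were 0 and 2, and without the last the median was 0.21. Bglap, the osteocalcin gene of bone-forming cells, lay at 7.995, 32.3 and 3.95 CPM in WT and at 0.897 to 1.61 CPM in Puma-/- (log2 fold change -3.39, SE 1.08, adjusted p = 0.384), and Col1a1, a bone matrix collagen, at 168, 577 and 96.9 CPM and at 33.3 to 94.96 CPM (-2.28, SE 1.003). Lepr, the receptor that marks stromal niche cells, lay at 6.61 to 13.1 CPM in WT and at 13.5 to 33.1 CPM in Puma-/- (1.01, SE 0.37). The summed level of the list was 820, 1679 and 579 CPM in WT and 590 to 1284 CPM in Puma-/-, with WT replicate 2 and Puma-/- replicate 1 the highest. The part of these cells in other results was not tested.

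**Figure D4:**
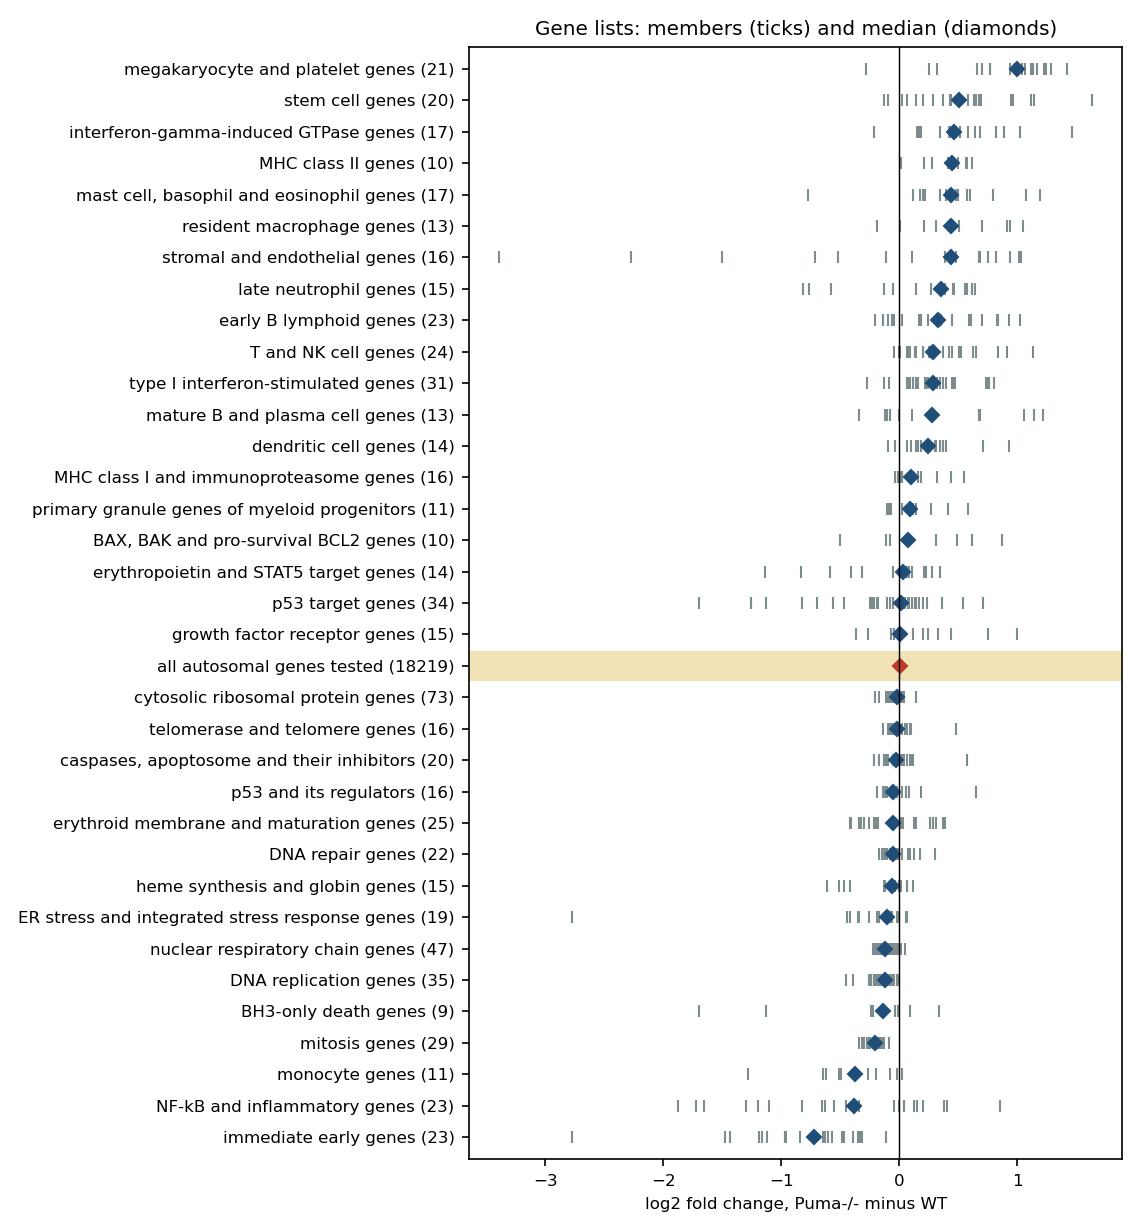
Log2 fold change of Puma-/- minus WT (horizontal axis) for each gene of 34 lists (ticks) and the median of each list (diamonds), with the number of genes tested in brackets and all autosomal genes in the shaded row (median only). Medians run from -0.72 for immediate early genes to 0.99 for megakaryocyte and platelet genes, and that of all autosomal genes is 0.0056.

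By position, medians of the 19 autosomes lay between -0.04 and 0.05, and 7.73% to 12.5% of an autosome's genes had an unadjusted p under 0.05. Of the 117 genes tested within 5 Mb of Bbc3, none passed the adjusted test of edgeR, and the median was 0.06. At an unadjusted p under 0.05, 10 were higher and 3 lower (11.1% together, beside 10.1% of all). With DESeq2 2 of the 117 passed, all higher, beside 0.483% of autosomal genes. Within 1 Mb of Gm15446 and of Nnt, 5 of 44 and 1 of 18 other genes had an unadjusted p under 0.05.

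Whether Puma loss acted differently on the telomerase-deficient background was tested by the interaction of the same fit, which rests on the labels of the G3 mTerc-/-Puma-/- libraries. Of 18219 autosomal genes, 4 (0.022%) passed, and 893 (4.9%) had an unadjusted p under 0.05. They were Gm15446, 1010001B22Rik, Cep85 and Ankrd63, whose differences of the log2 fold changes were -4.44 (SE 0.20, adjusted p = 9.86e-08), -5.92 (adjusted p = 0.0135), 1.65 (adjusted p = 0.0278) and -2.30 (adjusted p = 0.0386), each opposite to the change in telomerase-proficient cells. For Gm15446, 1010001B22Rik and Cep85, all 4 G3 mTerc-/-Puma+/+ libraries already lay nearer to Puma-/- than to WT, and for Ankrd63 2 of 4 did. For Bbc3 the difference was 1.56 (adjusted p = 0.456) and for Vwf -1.88 (adjusted p = 0.104), neither of which passed.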

How the data were processed

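Poly(A)-selected stranded libraries of 15 samples were sequenced in pairs. The authors trimmed reads with Trimmomatic 0.38 and quantified reads per gene with STAR 2.5.2b on GRCm38, and the deposited values are raw counts. Neither annotation release nor strand setting is given in the sources used here. Symbols and positions were taken from GENCODE on GRCm38, in which 563 identifiers (0.061% to 0.0707% of counts) had no symbol.

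The fit used edgeR 4.0.16 under R 4.3.3 (TMM scaling, filterByExpr, quasi-likelihood test, Benjamini-Hochberg adjustment over 18983 genes, threshold 0.05) on 14 libraries. G3 mTerc-/-Puma-/- replicate 2 was left out because the paper's heatmaps do not draw it. An exact permutation test was added for single genes. DESeq2 1.42.0, limma-voom (limma 3.58.1), other filters, samples, scalings and covariates, and leaving out each library were alternatives. Code was tested on simulated data. No source says that replicates came from separate donors, so p-values measure the spread between these samples. Intervals cover counting error only.

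Members and the 34 lists were chosen with earlier results of these data known. Named were Bbc3 and its family, called autosomal genes, then protein-coding genes of at least 1 CPM without overlap by p to 25, and up to 4 members per list with the lowest p, plus members that define a cell type or carry a known role, of which some were named after their values were seen. Some genes are not reported here.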

Additional observations from a re-analysis of the deposited data

Results flagged for a closer look

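Among 43 genes examined in the 4 Puma-/- libraries, 3 had a library far from the others by Dixon's test, which by chance flags about 1 in 20 groups. Bbc3 was highest in Puma-/- replicate 2, at 6.80 CPM, Mrvi1 was highest in replicate 3, at 13.98 CPM, and Bnip3l, a mitophagy receptor, was lowest in replicate 2, at 76.1 CPM.

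By the interaction of edgeR's fit, 4 named genes differed in the contrast of the labelled Puma genotypes with and without mTerc. This rests on the labels G3 mTerc-/-Puma-/-, in whose libraries Bbc3 was not low (13.5 to 17.0 CPM). The differences of the log2 fold changes were -4.44 for Gm15446, -5.92 for 1010001B22Rik, 1.65 for Cep85 and -2.30 for Ankrd63. For the first 3 of these, all 4 G3 mTerc-/-Puma+/+ libraries lay nearer to Puma-/- than to WT.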

How the results depend on the processing

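The count of autosomal genes was 5 to 13 in all alternatives other than DESeq2, which gave 124 (88 higher and 36 lower), and the fit without WT replicate 2, which gave 19. Over all genes DESeq2 gave 136. Leaving out 1 library gave 11 to 28 genes and 5 to 19 autosomal genes, with 5 without Puma-/- replicate 1 or 3. Of the 9 calls, 8 were shared by the fit without WT replicate 2 and all 9 by DESeq2. Gm15446 and 9430002A10Rik passed in all 17 alternatives, Gm6257, 1010001B22Rik and Wdfy1 in 16, Nnt in 10, Cep85 and Bbc3 in 8 and Ankrd63 in 6. Gm6257 and 1010001B22Rik were removed by a filter of 1 CPM.

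Bbc3 lost its call in the 7 libraries alone (-1.70, adjusted p = 0.152), with limma-voom (-1.61, adjusted p = 0.135), with the replicate block (-1.59, adjusted p = 0.188) and with Xist as a covariate (-1.58, adjusted p = 0.0971), and over the leave-one-out fits it ran from -1.999 to -1.46. The causes were not tested. The sign turned for some genes of the BCL2 family with no call. Bad was at 0.05 with library size alone, 0.0029 with a filter of 1 CPM, 0.019 with Xist and -0.095 to 0.054 over the leave-one-out fits. The Bik log2 fold change was -0.0058 with Xist and at -0.11 to 0.25 over the leave-one-out fits, Bnip3l at 0.020 with library size alone and at -0.076 to 0.023, and Bcl2 at -0.061 to 0.17. With library size alone the autosomal median was 0.07 and 1300 autosomal genes were higher and 440 lower at an unadjusted p under 0.05, beside 1051 and 788.

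WT and Puma-/- libraries of the same replicate number correlated in their deviations from the group means at 0.051, 0.047 and 0.175. Pairs of unlike number lay between -0.16 and 0.13, and not every library correlated best with its own number. The labels give only the number, and whether samples of the same number were handled together was not tested. With the replicate block 12 genes passed, 6 of them autosomal. With 3 against 4 libraries, single genes could not go below an exact p of 0.0286.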
